A study of Mus musculus with 9 samples.

Results

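Itch-promoting cytokines and leukotrienes act on sensory neurons through receptors that only some neurons make. The 8 genes described here encode receptor chains for these signals and a kinase that serves several of them: Il31ra, Osmr, Cysltr2, Il6st, Il4ra, Il13ra1, Il17ra and Jak1. They were listed by name, and each of the 8 was found among the 21536 genes of the deposited table of transcript counts from mouse trigeminal ganglia.

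As background, Il31ra pairs with Osmr to form the receptor for interleukin 31, a cytokine of T helper cells known for causing itch. Osmr also pairs with Il6st, known as gp130, to bind oncostatin M, and Il6st is shared by the receptors of the interleukin 6 family. Il4ra pairs with Il13ra1 in the receptor that binds both interleukin 4 and interleukin 13, Il17ra is the common chain of the interleukin 17 receptors, and Cysltr2 is a G protein-coupled receptor for cysteinyl leukotrienes. Jak1 is a tyrosine kinase bound to the cytoplasmic tails of Il31ra, Osmr, Il6st and Il4ra. The trigeminal ganglion holds the somatosensory neurons of the face, mouth, eyes and meninges, and its Nppb-expressing neurons are a class tied to itch.

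The cells came from wild-type FVB/N mice of 3 to 6 weeks, as the labels state (the study's methods give a narrower range), with no treatment and a single genotype throughout. Ganglia of mice of both sexes were pooled for each Dropseq run and the neurons were enriched on a Percoll gradient and by depletion of other cells, so the shares of cell types need not be those of the ganglion. The labels list 9 samples, but barcodes in the table name no run, and all cells were therefore handled as 1 pooled sample. With 1 sample, differences between groups of cells have no replicate check, and no test was made. Each level is the number of transcripts of a gene, counted by unique molecular identifiers (UMIs), per 1000000 UMIs in a set of cells (CPM), given with an exact Poisson 95% interval. Shares of cells with at least 1 UMI carry an exact Clopper-Pearson 95% interval. All intervals stand in parentheses and cover counting error only.

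A barcode was taken as a neuron when it had 500 to 7500 genes, a UMI of at least 3 of the 6 neuronal genes Tubb3, Scn9a, Snap25, Nefl, Nefm and Uchl1, and none of the epithelial gene Epcam. This left 3855 of 6997 barcodes, with a median of 3014 UMIs. Neurons were then placed in the first of 7 groups whose rule they met. Trpm8 neurons (n = 244) had 2 or more UMIs of the cold channel Trpm8, Mrgprd neurons (n = 379) had 2 or more of the receptor Mrgprd, and Mrgpra3 neurons (n = 49) had at least 1 of the chloroquine receptor Mrgpra3. Neurons with 2 or more UMIs of Nppb or of Sst, both neuropeptide genes, came next and are called Nppb/Sst neurons (n = 64). Cd34 neurons (n = 320) had at least 1 UMI of Cd34. Nefh neurons (n = 450) had 5 or more UMIs of the heavy neurofilament gene Nefh and none of Trpv1, and Calca neurons (n = 916) had 5 or more of Calca, the gene of CGRP, with at least 1 of the capsaicin receptor Trpv1. The other 1433 neurons met no rule and are called unmatched. None of the 8 genes took part in these rules.

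The groups matched their names on marker genes that the rules did not use. In the Nppb/Sst neurons, all 5 such markers had at least 2-fold higher CPM than in the other neurons, among them Npy2r at 37.1-fold and Htr1f at 52.7-fold. Of 7 genes of sensory neurons, all were found there. Avil stood at 840 CPM, the highest of the 8 sets, whereas Isl1 at 89.6 CPM and Pou4f1 at 86.3 CPM were the lowest, against 141 to 404 and 127 to 366 CPM. In the other 6 groups all 4 to 6 markers were also at least 2-fold higher. For the Mrgpra3 neurons these included Mrgprx1, at 9.28 CPM, the level of 3 UMIs, against 1.80 CPM in the other neurons. The study reported Mrgprx1 mainly in clusters other than that of Mrgpra3. Median depth per neuron was lowest in the unmatched neurons, at 1827 UMIs, and 3331 in the Nppb/Sst neurons, against 3534.5 to 5835.5 in the other groups. Of the neurons, 349 met more than 1 group rule, and 634 had 3 or more markers of another cell type. Among the Nppb/Sst neurons these numbers were 6 and 4, the 4 being 1 neuron with markers of glia, 2 with markers of red blood cells and 1 with markers of olfactory neurons. Barcode sequences that occurred 2 times in the table numbered 6.

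Dropseq leaves free RNA in droplets, so shares of neurons with a UMI were compared with a pair of cell sets taken to be low in them, 253 glia-like cells with a median depth of 1421 UMIs and 356 red blood cell-like cells with 1416. Shares no higher than in these sets were read as background. The broadly expressed genes had UMIs there as well, with Il6st in 5.53%, Jak1 in 6.72% and Il17ra in 1.98% of glia-like cells, and whether these came from free RNA was not tested. Shares were also taken after each cell had been thinned at random to 1000 UMIs, because a deeper cell shows more genes.

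Il31ra, Osmr, Cysltr2 and Jak1 had their highest level in the Nppb/Sst neurons. The bases before the RefSeq start of these 4 genes are shown because the genes shared this pattern. Each window holds the 250 bases before the start (GRCm38.p6, minus strand, 5′ to 3′), and capitals mark CG dinucleotides. The windows are chr13:112580663-112580912 for Il31ra, chr15:6874314-6874563 for Osmr, chr14:73049115-73049364 for Cysltr2 and chr4:101265224-101265473 for Jak1.
Il31ra: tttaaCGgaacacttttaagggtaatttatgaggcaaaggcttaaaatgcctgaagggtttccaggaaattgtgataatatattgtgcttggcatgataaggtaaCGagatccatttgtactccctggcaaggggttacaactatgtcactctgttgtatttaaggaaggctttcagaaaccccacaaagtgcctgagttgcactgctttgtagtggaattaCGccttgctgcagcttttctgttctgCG
Osmr: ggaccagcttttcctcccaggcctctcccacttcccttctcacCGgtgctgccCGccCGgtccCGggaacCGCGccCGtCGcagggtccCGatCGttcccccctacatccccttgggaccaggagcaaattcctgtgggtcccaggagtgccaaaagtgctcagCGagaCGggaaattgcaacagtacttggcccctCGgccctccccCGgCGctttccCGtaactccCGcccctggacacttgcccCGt
Cysltr2: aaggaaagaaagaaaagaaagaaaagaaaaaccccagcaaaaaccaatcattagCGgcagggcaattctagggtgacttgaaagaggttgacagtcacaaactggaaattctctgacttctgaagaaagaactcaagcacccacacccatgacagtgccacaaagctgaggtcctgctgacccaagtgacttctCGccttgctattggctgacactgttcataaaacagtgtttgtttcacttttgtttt
Jak1: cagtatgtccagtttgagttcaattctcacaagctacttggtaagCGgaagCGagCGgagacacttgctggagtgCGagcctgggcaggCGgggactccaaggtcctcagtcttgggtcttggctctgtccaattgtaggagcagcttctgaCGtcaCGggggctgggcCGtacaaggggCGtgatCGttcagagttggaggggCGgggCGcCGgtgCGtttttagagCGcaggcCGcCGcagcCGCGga
The windows of the 4 genes differed in their number of CG dinucleotides, and which start the neurons used was not tested. The windows of Il31ra and Cysltr2 held 4 and 2 CG dinucleotides, those of Osmr and Jak1 18 and 19, and the median over 32851 RefSeq promoter windows of this length was 6. As many CG dinucleotides as in the Osmr window were found in 21.7% of all windows, and as many as in the Cysltr2 window in 81.2%. RefSeq windows were at hand for 7 of the 8 genes, Il17ra being the other. The letters TTCNNNGAA, a core that STAT proteins are known to bind and that reads the same on both strands, occurred in 1 of the 7 windows, from position 60 of the Il31ra window counted from its 5′ end, and in 7.02% of all windows. TATAAA, on either strand, was in none of the 7 and in 12.4% of all windows.

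In the GENCODE annotation (GRCm38), Il31ra lies on chromosome 13 from 112519898 to 112594360 on the minus strand, and its neighbour is another of the 8 genes. Il6st spans 112464070 to 112510086 on the plus strand of the same chromosome, so the 3′ ends of both genes face each other across 9811 bases with no annotated gene between them. The others lie apart. Osmr is on chromosome 15 from 6813577 to 6874969, Cysltr2 on chromosome 14 from 73025603 to 73049114 and Jak1 on chromosome 4 from 101152367 to 101265282, all on the minus strand. On the plus strand lie Il4ra, on chromosome 7 from 125552120 to 125579474, Il13ra1, on chromosome X from 36112110 to 36171259, and Il17ra, on chromosome 6 from 120463247 to 120487559. The RefSeq starts of Il31ra, Osmr, Jak1 and Il4ra lie inside these GENCODE spans.

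Il31ra, the chain that binds interleukin 31, was found mainly in the Nppb/Sst neurons. Its level there was 554 CPM (473 to 645), from 167 UMIs, against 2.76 CPM in all other neurons, a ratio of 201 (148 to 276). Of the Nppb/Sst neurons, 35 of 64 had a UMI, or 54.7% (41.7 to 67.2), and after thinning 35.9%. No glia-like cell had one (0 of 253, with an exact interval up to 1.45%) and 1 of 356 red blood cell-like cells did (0.281%). These few neurons, 1.66% of all, held 74.6% of the Il31ra UMIs in neurons and 35 of the 65 neurons with a UMI. The next level was that of the Mrgpra3 neurons, at 58.8 CPM (35.4 to 91.8), which was 9.43-fold lower than in the Nppb/Sst neurons (5.85 to 16.1).

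The Mrgpra3 value rested on few cells. Of its 19 UMIs, 15 lay in 2 neurons that also had 2 or more UMIs of Nppb or Sst and would have met that rule had Mrgpra3 not come first. Without these 2 neurons the level was 12.8 CPM (3.48 to 32.7), with a UMI in 4 of 47 neurons. Mrgprd neurons stood at 5.50 CPM (3.26 to 8.70), and 9 of their 18 UMIs lay in 1 neuron. It was 1 of the 2 Mrgprd neurons with 2 or more UMIs of Nppb or Sst, and without these 2 the level was 2.78 CPM. The unmatched neurons had 3.10 CPM, the Trpm8 neurons 2.36 CPM and the Calca neurons 0.821 CPM, and from the Mrgprd neurons down no neighbours in this order differed beyond counting error. Cd34 and Nefh neurons had no Il31ra UMI, which allows up to 1.19 and 1.09 CPM. After thinning, the shares of Mrgprd, Calca and unmatched neurons with Il31ra, 0.209% to 0.264%, were no higher than that of red blood cell-like cells and were read as background.

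The level in the Nppb/Sst neurons was not carried by a single cell. Among the 35 positive neurons the count ran from 1 to 32 UMIs with a median of 3, only 6 had exactly 1 UMI, and the neuron with 32 held 19.2% of the UMIs. Outside the group, 30 of 3791 neurons had a UMI of Il31ra. Their median depth was 8440.5 UMIs, against 3014 for all neurons outside the group, and 7 of the 30 had a UMI of Nppb or Sst.

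**Figure D1:**
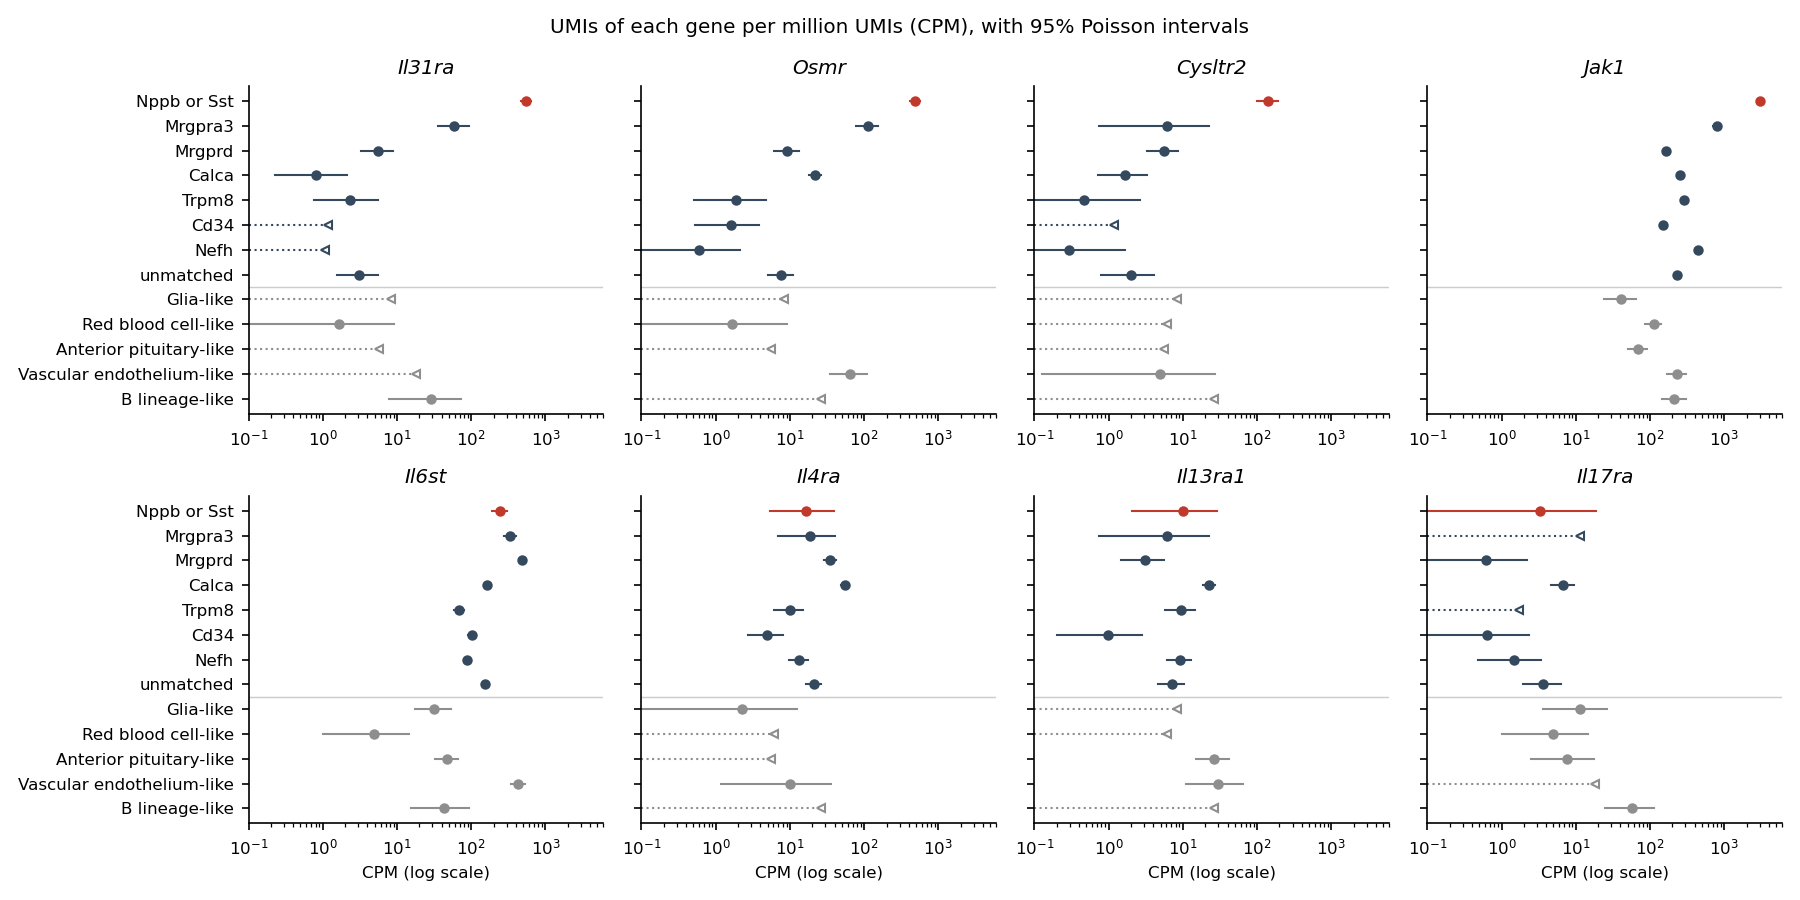
Level of each gene (CPM, log axis) in the 8 sets of neurons and in 5 sets of other cells, points with 95% Poisson intervals and open triangles for the upper limit where no UMI was found. Il31ra, Osmr, Cysltr2 and Jak1 stand highest in the Nppb/Sst neurons (red), at 554, 485, 139 and 3020 CPM, whereas Il6st stands at 477 CPM in Mrgprd neurons and Il4ra at 54.6 CPM in Calca neurons.

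Osmr, which pairs with Il31ra or with Il6st, also stood highest in the Nppb/Sst neurons but was less confined to them. Its level was 485 CPM (409 to 570) there, 47.6-fold (38.3 to 59.1) that of all other neurons, and 47 of 64 neurons had a UMI, or 73.4% (60.9 to 83.7) and 32.8% after thinning. Mrgpra3 neurons were next at 111 CPM (78.0 to 154), with a UMI in 20 of 49. The ratio between these groups was 4.35 (3.00 to 6.45). In contrast to Il31ra, most of the Mrgpra3 value remained without the 2 neurons that also carried Nppb or Sst, at 83.1 CPM (54.3 to 122) and 18 of 47 neurons.

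Osmr was also found in a small share of the Calca neurons. Their level was 21.8 CPM (17.8 to 26.3), with a UMI in 78 of 916 neurons, or 8.52%, and 2.29% (1.42 to 3.48) after thinning. The thinned share was 0.281% in red blood cell-like cells and 0 of 253 glia-like cells had a UMI. Because Calca neurons were numerous, they made up 40.8% of the 191 neurons with Osmr, and the Nppb/Sst neurons 24.6%. Mrgprd neurons at 9.17 CPM and unmatched neurons at 7.62 CPM did not differ beyond counting error, and neither did Trpm8, Cd34 and Nefh neurons, at 1.89, 1.62 and 0.589 CPM. Osmr also had a UMI in 13 of 115 vascular endothelium-like cells, or 64.1 CPM (34.1 to 110), which was 3.77-fold (1.99 to 6.53) the level over all neurons.

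Cysltr2, the leukotriene receptor, followed Il31ra more closely than Osmr did in being near absent outside the Nppb/Sst neurons. Its level there was 139 CPM (100 to 188), from 42 UMIs in 28 of 64 neurons, or 43.8% (31.4 to 56.7) and 15.6% after thinning. All other neurons stood at 1.79 CPM, a ratio of 77.7 (48.7 to 124). Neither glia-like nor red blood cell-like cells had a UMI of it. Mrgpra3 neurons had 2 UMIs, or 6.19 CPM, so the ratio of the Nppb/Sst neurons to them was 22.5 with a wide interval, of which the lower bound was 5.86.

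Mrgprd neurons held 18 Cysltr2 UMIs in 11 of 379 neurons, or 5.50 CPM (3.26 to 8.70). Here, too, 7 of the 18 UMIs lay in 1 neuron, 1 of the 2 Mrgprd neurons with 2 or more UMIs of Nppb or Sst, and the level without these 2 was 3.40 CPM. Unmatched and Calca neurons had 1.97 and 1.64 CPM, Trpm8 and Nefh neurons 1 UMI each, and Cd34 neurons none. In no set of neurons other than the Nppb/Sst neurons did the thinned share pass 0.528%, below the 1.03% that the exact interval reached in red blood cell-like cells, where 0 of 356 had a UMI.

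**Figure D2:**
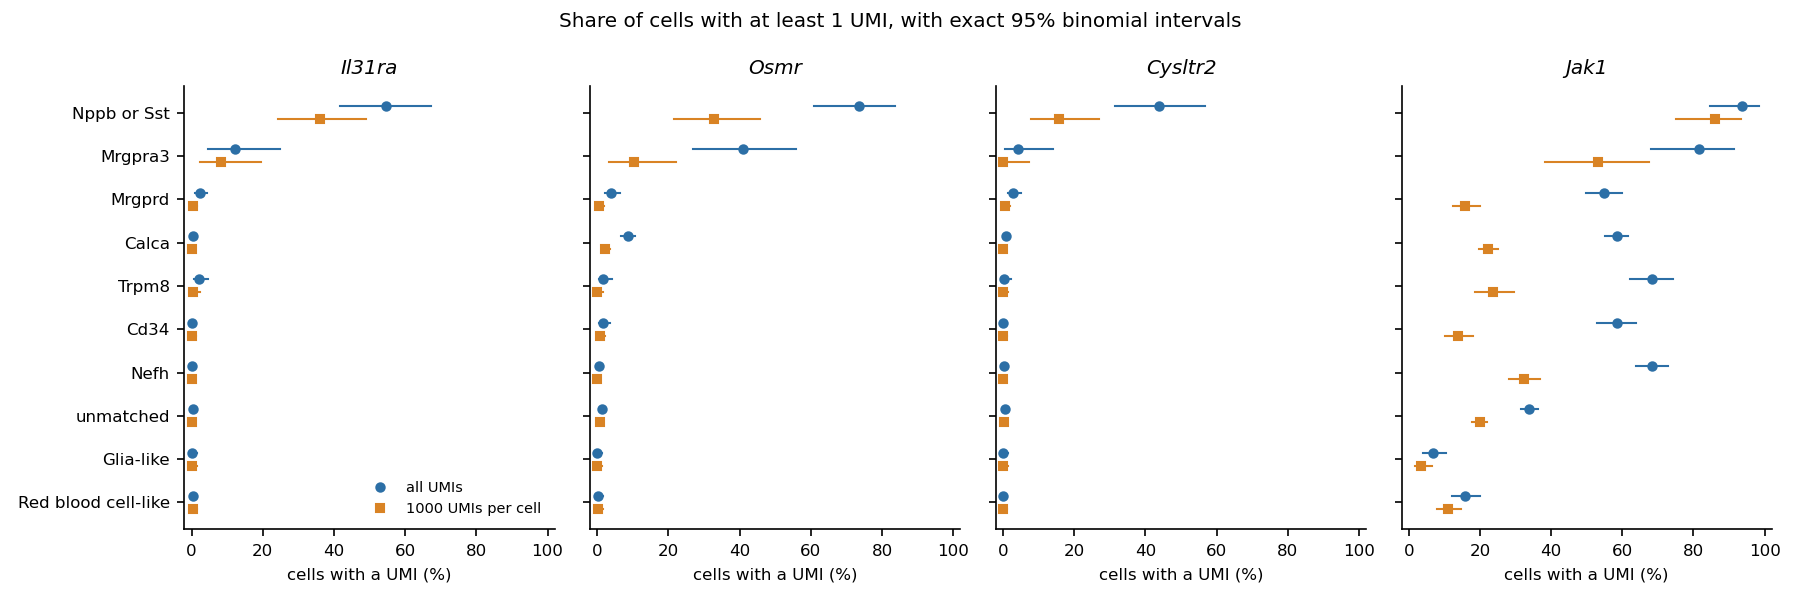
Share of cells with at least 1 UMI (%) of 4 genes in the 8 sets of neurons and in glia-like and red blood cell-like cells, at full depth (blue circles) and after thinning to 1000 UMIs per cell (orange squares), with exact 95% intervals. For Il31ra the Nppb/Sst neurons stand at 54.7% and 35.9% and the next group, Mrgpra3, at 12.2% and 8.16%.

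Jak1, the kinase used by most of these receptors, was found in all 8 sets of neurons, yet its level in the Nppb/Sst neurons stood apart. It was 3020 CPM (2827 to 3223) there, 11.5-fold (10.7 to 12.3) that of all other neurons. A UMI was found in 60 of 64 Nppb/Sst neurons, or 93.8% (84.8 to 98.3), and each of the 60 had at least 2 UMIs, with a median of 12.5 and a highest count of 64. After thinning the share was 85.9%, against 3.56% in glia-like and 11.0% in red blood cell-like cells.

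The next levels of Jak1 were 798 CPM (704 to 902) in Mrgpra3 neurons, 440 CPM in Nefh neurons and 289 CPM in Trpm8 neurons. The Nppb/Sst neurons exceeded the Mrgpra3 neurons by 3.78-fold (3.29 to 4.36). Without the 2 neurons that also carried Nppb or Sst, the Mrgpra3 neurons stood at 655 CPM (569 to 751). Calca, unmatched, Mrgprd and Cd34 neurons followed at 253, 231, 164 and 150 CPM, and of all neighbours in this order, the Mrgprd and Cd34 neurons were the only ones whose ratio had an interval that included 1. Endothelium-like cells stood at 232 CPM and B lineage-like cells at 213 CPM.

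The 783 genes with at least 2-fold higher CPM in the Nppb/Sst neurons were 6.46% of the 12114 genes with 50 or more UMIs in neurons, and 4 of the 8 receptor and kinase genes were among them. Ordered by this ratio, Il31ra was number 3 of 12114, Cysltr2 number 4, Osmr number 8 and Jak1 number 23, in a list that Nppb and Sst, which the rule used, are part of. Cysltr2 had 37 UMIs outside the Nppb/Sst neurons and reached the limit of 50 only through the group where it was high. Among the 12086 genes with 50 or more UMIs in the other neurons, a setting chosen after seeing the data, 6.3% were at least 2-fold higher, with 3 of the 7 members that remained, Il31ra, Osmr and Jak1. The median log2 ratio of the 8 genes was 1.96, against 0.03 over all genes. This median, with Cysltr2 included, lay between Jak1 at 3.52 and Il6st at 0.40, and no gene was near it. Il31ra, Cysltr2, Osmr and Jak1 ranged from 3.52 to 7.65, and the other genes of the 8 from -0.66 to 0.40. In Mrgpra3 neurons 6.22% of genes were at least 2-fold higher, with 3 of the 8 genes among them, Osmr at 7.17-fold (4.93 to 10.1), Il31ra at 5.91-fold (3.48 to 9.46) and Jak1 at 2.71-fold (2.38 to 3.07). The 2 neurons described above are part of these values. Without them Il31ra stood at 12.8 CPM (3.48 to 32.7), from 4 UMIs, within 2-fold of the 9.95 CPM of all other neurons. The Nppb/Sst neurons held 167 of the 205 UMIs behind that reference. All neurons outside the Nppb/Sst group stood at 2.76 CPM (2.09 to 3.58), an interval that overlapped slightly with that of the 12.8 CPM.

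**Figure D3:**
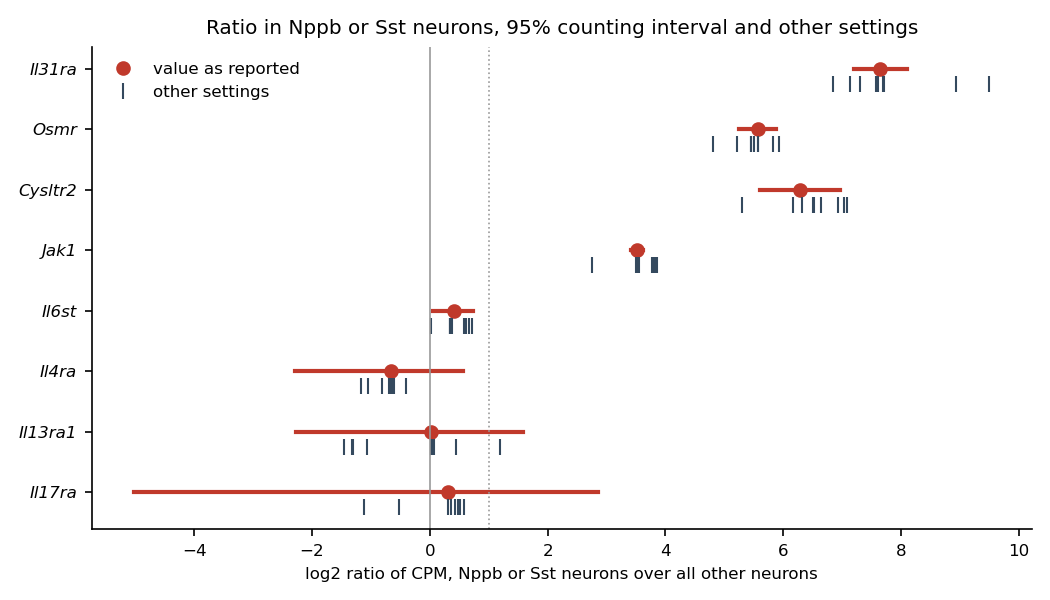
log2 ratio of CPM in Nppb/Sst neurons over all other neurons for each gene, with its 95% counting interval (red) and the values under other settings (dark ticks below). The dotted line marks 2-fold, past which lie Il31ra (7.65), Cysltr2 (6.28), Osmr (5.57) and Jak1 (3.52) under all settings shown, and the interval of Il4ra, Il13ra1 and Il17ra includes 0.

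The size of the Il31ra ratio depended on how neurons were assigned. The log2 ratio of 7.65 (7.21 to 8.11) was 6.85 when the rules on Trpm8, Mrgprd, Nppb and Sst all asked for 1 UMI in place of 2, which gave 90 Nppb/Sst neurons, and 9.50 when only neurons that met exactly 1 rule were used. Over all settings run, of which 1 was chosen after seeing the data, Osmr ranged from 4.80 to 5.93, Cysltr2 from 5.30 to 7.08 and Jak1 from 2.75 to 3.87. The effect of the rule on Epcam on these ratios was not tested. That rule left out 356 barcodes with 3 or more neuronal genes, and 10 of them had 2 or more UMIs of Nppb or Sst. Those 10 held 62 Il31ra, 54 Osmr, 19 Cysltr2 and 354 Jak1 UMIs. They thus held most of the 86 Il31ra UMIs in barcodes that were not neurons, where the level was 8.99 CPM, against 10.7 CPM over all neurons.

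The 4 genes were found together in single Nppb/Sst neurons. Of the 35 neurons with Il31ra, 33 also had its partner Osmr (94.3%), and all 35 had Jak1. The number with both Il31ra and Osmr, 33, stood above the 25.7 given by the product of the shares. Il31ra and Cysltr2 were found together in 19 neurons (product 15.3) and Osmr and Cysltr2 in 25 (product 20.6). Depth moves with these counts, since neurons with Il31ra had a median of 3550 UMIs and those without 2919, and its part in them was not tested. The set of Il31ra, Osmr and Jak1 was complete in 33 of 64 Nppb/Sst neurons, 51.6% (38.7 to 64.2), and in 8 of the 3791 others, 3 of them Mrgpra3 neurons.

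Of the 3 receptor genes Il31ra, Osmr and Cysltr2, 19 Nppb/Sst neurons had all, 20 had 2, 13 had 1 and 12 had none. The median depth of these neurons was 4285, 3481.5, 2372 and 3003 UMIs. Among the other neurons, 1 of 3791 had all 3, and it had 22626 UMIs. At least 4 of the 8 genes were found in 34 of 64 Nppb/Sst neurons (53.1%), against 0.140% to 12.2% of the neurons in the other sets.

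**Figure D4:**
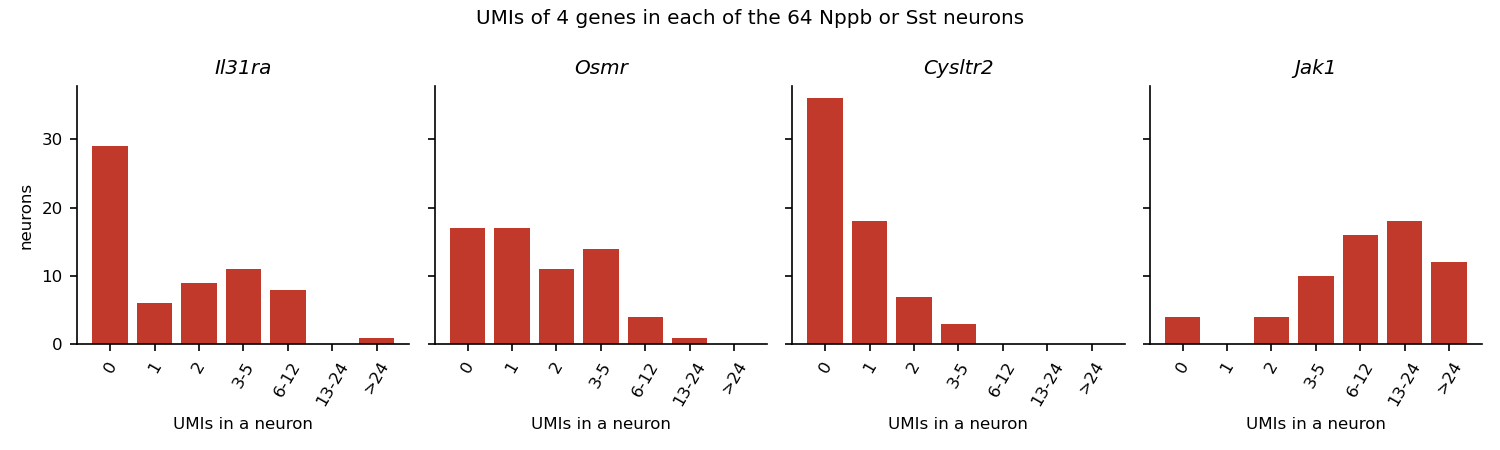
Number of Nppb/Sst neurons (of 64) by their count of UMIs of Il31ra, Osmr, Cysltr2 and Jak1. Il31ra was absent from 29 neurons and reached 32 UMIs, Cysltr2 did not pass 4, and most neurons had more than 5 UMIs of Jak1.

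The Nppb/Sst neurons were not uniform. The 35 neurons with Il31ra had 645 CPM (534 to 772) of Osmr and 3869 CPM (3591 to 4164) of Jak1, against 231 CPM (152 to 336) and 1679 CPM (1452 to 1931) in the 29 without. Cysltr2 stood at 168 CPM (114 to 238) and 94.2 CPM (47.0 to 169), with overlapping intervals. The neuropeptide gene Nppb, by which the neurons were chosen, stood at 1544 and 668 CPM, and the neuropeptide Y receptor gene Npy2r stood at 293 CPM (220 to 382) and 137 CPM (78.3 to 223), with intervals that overlapped slightly. Calca was the reverse, with 48.8 CPM (22.3 to 92.6) in neurons with Il31ra and 2921 CPM (2619 to 3248) in those without, where 10 of 29 neurons had a UMI of it. This value rested on 5 neurons with at least 22 Calca UMIs each, which held 336 of the 341. Without those 5 neurons, a setting chosen after seeing the data, Calca stood at 75.7 CPM (24.6 to 177) in the neurons without Il31ra, Osmr at 394 CPM (257 to 577), Npy2r at 242 CPM (138 to 393) and Jak1 at 2649 CPM (2271 to 3072). The intervals of Osmr and Npy2r then overlapped those of the neurons with Il31ra, and those of Jak1 did not. Still included was a neuron with 55 Sst UMIs of 5144 and no UMI of Nppb, Il31ra, Osmr, Cysltr2 or Jak1. Its part in the Jak1 difference was not tested.

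The levels were also compared by which peptide gene a neuron carried. Of the 64 neurons, 43 had 2 or more UMIs of both Nppb and Sst, 14 of Nppb alone and 7 of Sst alone. In the 43 neurons Il31ra stood at 704 CPM (595 to 827), Osmr at 628, Cysltr2 at 157 and Jak1 at 3648 CPM. In the 14 with Nppb alone the levels were 217 CPM (124 to 353) for Il31ra, 149 for Osmr and 1642 CPM for Jak1, and Cysltr2 had 7 UMIs. The same 5 neurons rich in Calca were all among these 14, and they held no Il31ra, 1 Osmr and 21 Jak1 UMIs. In the other 9 the levels were 696 CPM (398 to 1129) for Il31ra, 435 CPM (208 to 799) for Osmr and 4347 CPM (3537 to 5287) for Jak1. The clearly lower levels of Il31ra and Jak1 with Nppb alone were thus not seen without those 5 neurons. Osmr stayed below its 628 CPM (525 to 744) in the 43 neurons, with overlapping intervals. None of the 43 with both peptides had 5 or more Calca UMIs. The 7 with Sst alone had 3 Il31ra UMIs and a median depth of 1503 UMIs.

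Il6st, the gp130 chain, was found in all sets of neurons and had its highest level in the Mrgprd neurons, not in the Nppb/Sst neurons. Mrgprd neurons had 477 CPM (454 to 502), 3.69-fold that of all other neurons, or a log2 ratio of 1.88 (1.79 to 1.98), and 326 of 379 had a UMI, or 86.0% (82.1 to 89.3) and 36.7% after thinning. They held 40.6% of the Il6st UMIs in neurons. Mrgpra3 neurons followed at 337 CPM (277 to 407) and Nppb/Sst neurons at 242 CPM (190 to 305), which was 1.32-fold (1.04 to 1.67) that of all other neurons. This difference was not seen when the rules on Trpm8, Mrgprd, Nppb and Sst asked for 1 UMI, which gave a log2 ratio of 0.018.

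Below these came Calca neurons at 164 CPM and unmatched neurons at 153, which did not differ beyond counting error, Cd34 neurons at 103 and Nefh neurons at 88.3, which did not either, and Trpm8 neurons at 68.8 CPM. The thinned share in Trpm8 neurons, 7.38%, was the lowest among neurons, and that of glia-like cells was 3.95%. Of the 8 genes, Il6st alone was among the 5.27% of genes with at least 2-fold higher CPM in Mrgprd neurons. Outside neurons, endothelium-like cells had 424 CPM (339 to 524), with a UMI in 45 of 115 cells. Endothelial markers (3 or more) were found in 2 of 379 Mrgprd neurons, and without neurons that had 3 or more markers of any other cell type the log2 ratio of Il6st was 1.83.

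Osmr and Il6st, the oncostatin M receptor pair, were found together most often in the groups with the highest Osmr. In Nppb/Sst neurons 29 of 64 had both (product of shares 25.7), and with Jak1 counted as well the set was complete in the same number, 45.3% (32.8 to 58.3). In Mrgpra3 neurons it was complete in 16 of 49 (32.7%), in Calca neurons in 44 of 916 (4.80%) and in Mrgprd neurons, despite their high Il6st, in 14 of 379 (3.69%).

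Among the 8 sets of neurons, Il4ra, Il13ra1 and Il17ra had their highest level in the Calca neurons. These 3 were the members among the 5.42% of genes with at least 2-fold higher CPM there. Il17ra had 23 UMIs outside the Calca neurons and was counted only through them. Among genes with 50 or more UMIs in the other neurons, 4.16% were at least 2-fold higher, Il4ra and Il13ra1 with them. Il4ra, the chain common to the interleukin 4 and 13 receptors, had 54.6 CPM (48.3 to 61.6) in Calca neurons, 3.12-fold that of all other neurons, or a log2 ratio of 1.64 (1.39 to 1.89). A UMI was found in 207 of 916, or 22.6%, and in 4.59% after thinning, against 0.395% of glia-like cells. Mrgprd neurons were next at 35.2 CPM (29.0 to 42.2) with 85 of 379 neurons, and the ratio between both groups was 1.55 (1.24 to 1.95).

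The Nppb/Sst neurons were not among those with much Il4ra. They had 5 UMIs in 4 of 64 neurons, or 16.6 CPM (5.39 to 38.7), and their log2 ratio to all other neurons was -0.66 (-2.29 to 0.57). Below the Mrgprd neurons came unmatched neurons at 20.9 CPM (16.4 to 26.2) and Mrgpra3 neurons at 18.6. Nppb/Sst neurons, Nefh neurons at 13.2 and Trpm8 neurons at 9.90 CPM (6.13 to 15.1) followed. Neighbours among these sets did not differ beyond counting error, but the intervals of unmatched and Trpm8 neurons did not overlap. Cd34 neurons were lowest at 4.85 CPM, and the ratio of Trpm8 to Cd34 neurons was 2.04 (1.004 to 4.26). Barcodes not taken as neurons had 68 Il4ra UMIs, of which 36 lay in the 40 barcodes with over 7500 genes and 27 in those with Epcam and 3 or more neuronal genes. In the 1811 barcodes with fewer than 3 neuronal genes the level was 0.806 CPM, from 3 UMIs, against 26.1 CPM over all neurons.

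Il13ra1, the partner of Il4ra, had 22.8 CPM (18.8 to 27.4) in Calca neurons, 3.89-fold that of all other neurons, or a log2 ratio of 1.96 (1.55 to 2.37). It had a UMI in 95 of 916, or 10.4%, and 3.49% after thinning, with none in glia-like or red blood cell-like cells. The other sets lay between 0.969 CPM in Cd34 neurons and 9.96 CPM in Nppb/Sst neurons, the latter from 3 UMIs. No neighbours in this order differed beyond counting error, the Calca and Nppb/Sst neurons included. Both chains were found in 26 Calca neurons (product of shares 21.5) and in none of the Nppb/Sst neurons. The set of Il4ra, Il13ra1 and Jak1 was complete in 21 of 916 Calca neurons, 2.29% (1.42 to 3.48), and in 0 of 64 Nppb/Sst neurons, where the interval reached 5.60%. Outside neurons Il13ra1 was found in 4 of 43 epithelium-like cells (53.6 CPM), 6 of 115 endothelium-like cells (29.6 CPM), 17 of 296 pituitary-like cells (26.0 CPM) and 1 of 12 fibroblast-like cells (33.3 CPM). Pituitary markers (3 or more) were found in 21 of 916 Calca neurons, and without neurons that had 3 or more markers of any other cell type the log2 ratio of Il13ra1 was 2.09.

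Il17ra was near the limit of detection. Calca neurons had 33 UMIs in 30 of 916 neurons, or 6.78 CPM (4.66 to 9.52), 4.73-fold that of all other neurons, or a log2 ratio of 2.24 (1.43 to 3.08). After thinning the share was 0.764%, between the 0.281% of red blood cell-like and the 1.19% of glia-like cells, and it was not read as above background. Trpm8 and Mrgpra3 neurons had no UMI and Nppb/Sst neurons had 1. The Calca and the unmatched neurons, which had 3.67 CPM, did not differ beyond counting error. The highest level lay outside neurons, in B lineage-like cells, with 8 UMIs in 5 of 73 cells and 56.8 CPM (24.5 to 112), 21.2-fold (8.73 to 44.7) that over all neurons. Of the 8 UMIs, 4 lay in 1 cell, and without it the level was 29.0 CPM (7.89 to 74.1).

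None of the 8 genes was among those with at least 2-fold higher CPM in Trpm8 neurons (3.66% of genes), in Cd34 neurons (4.25%) or in Nefh neurons (5.52%).

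**Figure D5:**
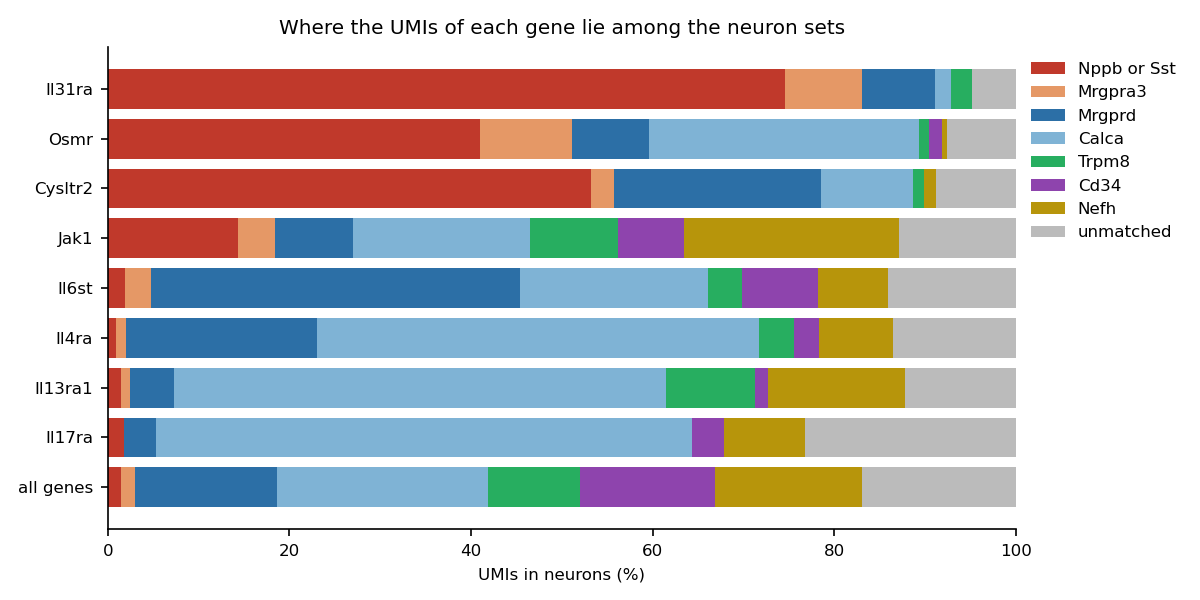
Share (%) of the UMIs of each gene in neurons that lay in each of the 8 sets, with all genes together in the lowest bar. The Nppb/Sst neurons (red) held 74.6% of Il31ra, 53.2% of Cysltr2, 41.0% of Osmr and 14.4% of Jak1, and Calca neurons held 48.6% of Il4ra.

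Genes of the same pathways were taken from 5 lists with 92 entries. Of 23 partner receptor chains, 14 had enough UMIs, and in the Nppb/Sst neurons 0 were at least 2-fold higher and 1, the tumour necrosis factor receptor Tnfrsf1a, was at least 2-fold lower, from 2 UMIs. The list's median log2 ratio was 0.24, against 0.03 for all genes. Lifr, which pairs with Il6st in the receptor for leukaemia inhibitory factor, had 491 CPM in Nppb/Sst neurons, 1.69-fold (1.43 to 1.99) that of all other neurons. Like Il6st it was higher in Mrgprd neurons, at 581 CPM and 2.42-fold (2.30 to 2.56). Crlf2, a chain of the receptor for TSLP, had a ratio of 1.20 in Nppb/Sst neurons with 8 UMIs, and Il11ra1, Il10rb, Ifngr1, Ifngr2, Ifnar1 and Ifnar2 ranged from 0.577 for Ifnar1 to 1.71 for Ifnar2. Il17re had 1 UMI there and too few in all neurons to be counted.

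Of the genes for ligands, 10 of 13 were in the table and 1 had enough UMIs. This was Il6, which passed the limit of 50 UMIs only through the Calca neurons. It had no UMI in the Nppb/Sst neurons and 8.01 CPM in Calca neurons, 5.84-fold (3.38 to 10.3) that of all other neurons. Osm, which encodes oncostatin M, had no UMI in any neuron. Il31, Il13 and Il17a were not analysed here.

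Among 17 signalling genes, 2 were at least 2-fold higher in the Nppb/Sst neurons and 2 lower, where 6.46% of all genes were higher and 11.3% lower. Socs2, which encodes a suppressor of cytokine signalling, had 332 CPM, 4.70-fold (3.80 to 5.76) that of all other neurons, and was also higher in Mrgpra3 neurons, at 2.96-fold (2.29 to 3.77), and in Mrgprd neurons, at 2.27-fold. The kinase gene Jak2 had 10 UMIs and a ratio of 2.22 (1.06 to 4.14). Those lower were the kinase gene Tyk2, with 1 UMI and a ratio of 0.294 (0.00741 to 1.65), and Cish, with 2 UMIs. Stat3, through which gp130 receptors signal, had a ratio of 1.20 (0.952 to 1.49) and Stat6, which interleukin 4 engages, 1.65 (1.07 to 2.43). The phosphatase gene Ptpn11 stood at 0.539 (0.319 to 0.854). Stat2, Stat5b, Socs1, Socs3, Socs7 and Pias3 lay between 0.704 and 1.42.

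Of the leukotriene pathway, 12 of 13 genes were in the table and 4 had enough UMIs, of which 0 were at least 2-fold higher in the Nppb/Sst neurons. Cysltr1, the other cysteinyl leukotriene receptor, had 1 UMI in all neurons, and so did Alox5, whose enzyme starts leukotriene synthesis. Ltc4s, the gene of leukotriene C4 synthase, had none. Lta4h, whose enzyme makes leukotriene B4, had 63.1 CPM in Nppb/Sst neurons and a ratio of 1.38 (0.829 to 2.17). Ggt5, whose enzyme converts leukotriene C4 to D4, had no UMI there and was 7.37-fold (4.06 to 13.9) higher in Calca neurons than in all others, through which alone it reached 50 UMIs.

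The list of other itch receptors and effectors held 17 genes with enough UMIs, of which 7 were at least 2-fold higher in the Nppb/Sst neurons and 2 lower, beside the same 6.46% and 11.3% of all genes. Nppb and Sst, 2 of the 7, defined the group, and Sst and S1pr1, with 40 and 45 UMIs in the other neurons, reached the limit of 50 only through it. The serotonin receptor gene Htr1f had 156 CPM and a ratio of 52.7 (35.3 to 78.4), and S1pr1, which encodes a receptor for sphingosine 1-phosphate, 110 CPM and 50.2 (31.0 to 80.4). Npy2r followed at 232 CPM and 37.1 (27.4 to 50.1), and F2rl1, the protease receptor gene, at 39.8 CPM and 6.04 (3.05 to 10.9). F2rl1 also stood at 7.08-fold (5.05 to 9.96) in Mrgprd neurons. Plcb3, which encodes the phospholipase C downstream of several itch receptors, had 219 CPM and a ratio of 2.04 (1.57 to 2.61).

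2 further genes of that list were high but had fewer than 50 UMIs in neurons. The histamine receptor gene Hrh1 had 8 UMIs in 8 of 64 Nppb/Sst neurons, a ratio of 13.7 (5.53 to 29.6), and the neuropeptide gene Nts had 11 UMIs in 6 of 64, a ratio of 53.8 (22.1 to 128). The channel gene Trpa1 and the adenosine receptor gene Adora1 were the 2 lower genes, at 0.435 (0.248 to 0.708) and 0.250 (0.108 to 0.493). Trpv1 stood at 1.56 (1.23 to 1.95) and the G protein gene Gnaq at 1.46, and Nmb, Gpr35 and Gna11 lay between 0.689 and 1.33.

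For each of the 8 genes, the 5 genes with the most similar pattern were found by Pearson's r of log2(CPM + 10) over the 8 sets of neurons, which share depth and free RNA. Il31ra was most like Ada, the adenosine deaminase gene (r = 0.993), followed by Zbtb46, Klhl15, Dnase2a and Ildr2. For Cysltr2 they were Zbtb46 (r = 0.982), Dcxr, S1pr1, Gga1 and 2310058D17Rik, and for Osmr C1d (r = 0.984), Klhl15, Lamb2, Socs4 and Gm23935. Jak1 was most like Ccdc176 (r = 0.990), Htr1f, Ptgr1, Pcdhb21 and 9230110C19Rik. Likeness of pattern was not likeness of level. Ccdc176 stood at 16.6 CPM in Nppb/Sst neurons and 4.90 CPM in the other neurons, and 9230110C19Rik at 9.96 CPM, the level of 3 UMIs, and 3.01 CPM. Klhl15 and Dnase2a stood at 19.9 and 13.3 CPM in Nppb/Sst neurons.

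The other 4 genes had other neighbours. Il6st was most like Gnaq (r = 0.989), then Ddb1, Mink1, Gng2 and Tmem164. Il4ra was most like Kcnb2 (r = 0.964), Stk32a, Clip4, Galr2 and Trerf1, Il13ra1 like Csrnp1 (r = 0.969), Msantd1, Sfr1, Svil and Irgm2, and Il17ra like Adamtsl2 (r = 0.990), Acot11, Radil, 1300015D01Rik and Fxyd5. The likeness of Il17ra rested on few UMIs, 56 of it and 60 of Adamtsl2 in all neurons, with 12099 genes compared. Il17ra passed 6.78 CPM in no set of neurons, below the 10 CPM added before the logarithm. Among the 8 genes, Il31ra and Osmr had r = 0.962, Il31ra and Cysltr2 0.948 and Il31ra and Jak1 0.928. The partners Il4ra and Il13ra1 had r = 0.587, and Osmr and Il6st 0.545.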

How the data were processed

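Trigeminal neurons of FVB/N mice were profiled by Dropseq in 9 samples. The authors deposited 1 table of counts, the number of UMIs of each gene in each barcode without normalization. By the study's methods only barcodes with 1000 or more transcripts were kept, and the lowest total in the table was 1000 UMIs (median 2031, 30491529 in all). The submitters' processing notes name bcl2fastq 2.17, STAR 2.5.3a, Seurat 1.4.0.16 and mm10.

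The 8 genes were listed by name. These genes, the gene lists and the group rules were chosen with earlier results of these data known. UMIs were summed over the cells of a group and given as CPM. Poisson, Clopper-Pearson and conditional exact intervals (scipy 1.17.1, numpy 2.4.6, pandas 2.3.3, Python 3.11.15, matplotlib 3.10.9) were set at 95%. A gene counted as higher when its CPM in a group was at least 2-fold that of all other neurons, among genes with 50 or more UMIs in neurons, and as lower at no more than the inverse of that, with a count of 0 set to 3 UMIs. The scripts were tested on simulated data. Other cells were named by 3 or more markers of a list and at most 1 neuronal gene. From the pathway lists, genes were named that were at least 2-fold higher in the Nppb/Sst neurons or had a UMI in 5% or more of them, and the others were counted. 1 listed gene that met this rule is not reported here. A gene named beyond that was chosen after its values were seen. No doublet caller was run, and possible doublets were kept, 349 neurons that met more than 1 group rule among them. Alternatives were a thinned table, stricter and looser limits on neurons and groups, and a mean over cells in place of summed UMIs.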

Additional observations from a re-analysis of the deposited data

How the results depend on the processing

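The log2 ratios of Il31ra, Osmr, Cysltr2 and Jak1 in the Nppb/Sst neurons kept their direction and stayed above 2-fold under all settings run, and no value with a called direction turned. Thinned to 1000 UMIs per cell, the log2 ratio was 7.14 for Il31ra, 5.22 for Osmr, 7.03 for Cysltr2, 1.73 for Il6st in Mrgprd neurons and 1.15 for Il4ra in Calca neurons, and the Nppb/Sst neurons made up 67.6%, 35% and 66.7% of the neurons with Il31ra, Osmr and Cysltr2. With 1 UMI in place of 2 in the rules on Trpm8, Mrgprd, Nppb and Sst together, the ratios were 6.85 for Il31ra, 4.80 for Osmr, 5.30 for Cysltr2, 0.018 for Il6st and 2.75 for Jak1, and 427 genes in place of 783 were at least 2-fold higher. At 3-fold 263 were. With neurons that met exactly 1 rule, the ratios were 9.50 for Il31ra, 7.08 for Cysltr2, 3.81 for Jak1, 1.98 for Il6st in Mrgprd and 1.92 for Il4ra in Calca neurons, and the shares 75.6% for Il31ra and 61.9% for Cysltr2. Leaving out only neurons that met more than 1 rule, a setting chosen after seeing the data, gave 8.93 for Il31ra, 5.93 for Osmr, 3.87 for Jak1 and a share of 66.7% for Il31ra. A mean over cells gave 3.84 for Jak1, 1.71 for Il6st in Mrgprd and 1.28 for Il4ra in Calca neurons. Without the deepest 5% of neurons, Jak1 was at 3.77 and Il6st in Mrgprd neurons at 1.74. The cause of these shifts was not tested. The other 84 log2 ratios, 18 shares and 9 counts moved by less than their interval or 1.5 times. In the Nppb/Sst neurons Il13ra1 (-1.45 to 1.19) and Il17ra (-1.12 to 0.58) took both signs, from 3 UMIs and 1 UMI, and thinning left no Il17ra there. No paired analysis was possible because the barcodes name no run and all cells form 1 pooled sample. For the same reason no sample could be left out in turn.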

Other observations

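Other genes on the pathway lists were highest outside the Nppb/Sst neurons. In Trpm8 neurons Tnfrsf1a, a tumour necrosis factor receptor, was 3.84-fold that of all other neurons and Cish, a suppressor of cytokine signalling, 2.90-fold, with 2.10-fold in Nefh neurons. In Cd34 neurons the interferon receptor chains Ifngr2 and Ifnar1 stood at 3.01-fold and 2.25-fold. Il17rc, a partner of Il17ra, stood at 3.11-fold (1.98 to 4.82) and 10.4 CPM in Mrgprd neurons and at 2.61-fold (1.62 to 4.11) and 9.37 CPM in Cd34 neurons. Il2rg, the common gamma chain that can pair with Il4ra, stood in Mrgprd neurons at 2.25-fold (1.14 to 4.21) and 4.58 CPM, and in Calca neurons at 1.80-fold (0.953 to 3.29) and 3.70 CPM. In the same Mrgprd neurons Il17ra had 2 UMIs and Il4ra 115. In B lineage-like cells, 4 UMIs of Il31ra lay in 1 of 73 cells.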
